A study of Rattus norvegicus with 12 samples.

Results

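The hypoxia-inducible factors (HIF), the enzymes that mark them for destruction and a set of their target genes were followed in rat pancreatic islets as 10 genes, of 25888 gene symbols listed in the deposited count table. They were chosen by name, with earlier results of these data known. The factor subunits are Hif1a, Epas1 and Arnt, and the oxygen-sensing prolyl hydroxylases are Egln1 and Egln3. The targets are P4ha1, P4ha2, Bnip3, Adm and Car9. Each gene was read from the transcript with the highest mean count, and all 10 passed the filter on low counts. Arnt alone had 2 listed transcripts, and the labels do not say whether 1 read could count for both.

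The islets came from Sprague Dawley rats with intrauterine growth restriction (IUGR), brought about in the dams by tying both uterine arteries at embryonic day 18, and from control rats whose litters were culled to 8. The 4 groups were IUGR at 10 weeks, control at 10 weeks, IUGR at 2 weeks and control at 2 weeks of age, with 3 libraries in each and 12 in all. Islets were freed by collagenase digestion and a density gradient, per the labels, which set an RNA integrity number above 7 and name a kit that removes ribosomal RNA. The labels do not say whether control dams had a sham operation, which sex the animals had, or whether a library pooled several animals or litters. The p-values therefore measure the spread between these libraries.

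Libraries held between 30.4 and 64.2 M counts (M, mega). The islet hormones and granule proteins Ins1, Ins2, Iapp, Gcg, Sst, Ppy and Chga were detected in every library. Digestive-enzyme RNA of acinar cells, which surround islets in the pancreas, took unequal shares of the counts: 28 acinar genes made up 0.583% to 2.18% in IUGR islets at 10 weeks and 13.2% to 44.7% in controls at 10 weeks. At 2 weeks the share was 4.09% to 8.73% in IUGR islets and 20.0% to 39.4% in controls. The 10-week control replicates 1 and 3 (40.7% and 44.7%) stood apart from replicate 2 (13.2%). At both ages every IUGR library had a lower acinar share than every control library. In bulk islet RNA, fewer cells of a type and less RNA per cell cannot be told apart.

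HIF is a pair of proteins, an oxygen-regulated alpha subunit (HIF-1alpha from Hif1a, HIF-2alpha from Epas1) and the constant partner ARNT. In the presence of oxygen, the EGLN prolyl hydroxylases modify the alpha subunit, the von Hippel-Lindau protein binds it, and it is degraded. With little oxygen it builds up and binds DNA near genes for glycolysis, vessel growth, matrix formation and pH control. The main oxygen response of the alpha subunit is at the protein, which RNA counts do not measure. In beta cells, mouse studies have linked a balanced HIF activity to normal glucose-stimulated insulin release.

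Levels below are scaled CPM (counts per M counts, with library sizes scaled by TMM, the trimmed mean of M-values). They are compared between groups for a gene, not between genes, since transcript length is not taken into account. At 10 weeks the TMM factors were 0.49, 1.07 and 0.44 in control libraries and 1.18, 1.18 and 1.16 in IUGR libraries. Differences are log2 fold changes ± standard error from a fit of all 4 groups with the quasi-likelihood F test of edgeR, and a gene was called where its Benjamini-Hochberg adjusted p over 20733 transcripts was under 0.05. Where the libraries of groups are said not to overlap, how many of all transcripts did the same was not counted.

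At 10 weeks P4ha1, P4ha2 and Bnip3 rose in IUGR islets, to between 1.35 and 1.40 times the control level, and the other 7 genes were not called. At 2 weeks Hif1a, P4ha1 and P4ha2 rose, to between 1.34 and 1.44 times the control level. The 3 of 10 genes called higher at 10 weeks stand beside 12.4% of all transcripts called higher and 15.5% called lower. The 3 of 10 called higher at 2 weeks stand beside 1.66% called higher and 2.21% called lower. Since the members were chosen with earlier results of these data known, these shares are a description. The 2-week background was unstable: 0 to 2350 transcripts were called without 1 library in turn, and 0 with the mean acinar level as a covariate or with only the 2-week libraries. The median log2 fold change of the 10 genes was 0.01 at 10 weeks and 0.45 at 2 weeks, against -0.01 and 0.05 over all transcripts tested at those ages. Without both 10-week control libraries of high acinar share the 10-week result was 1 call higher, in Bnip3, and 1 lower, in Epas1, a fit in which 1 control library stood for its group. With the acinar covariate the 3 higher calls at 10 weeks were lost, and 0 members were called higher and 2 lower, Epas1 and Adm. That fit cannot fully separate IUGR from acinar level, since every IUGR library had a lower acinar share than every control library of its age. The split of all calls at 2 weeks depended on scaling. It was 345 higher and 459 lower as reported, and 199 higher and 604 lower with the acinar transcripts left out.

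**Figure D1:**
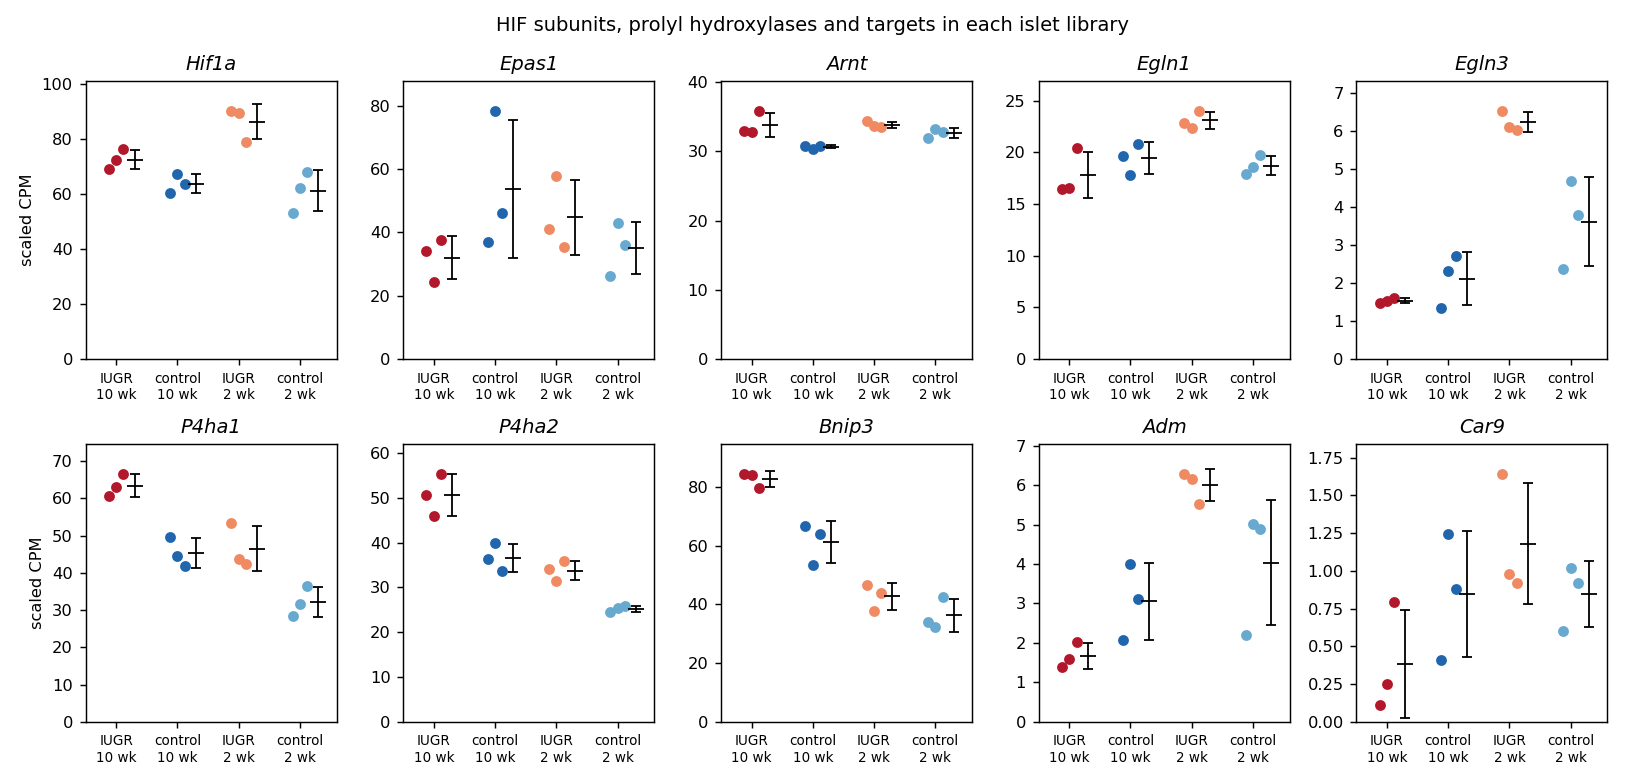
Scaled CPM of the 10 genes (vertical axes from 0, one scale per gene) in each library of the 4 groups. Coloured points are libraries, and the black mark and bar to their right are the mean and SD (n = 3). P4ha1, P4ha2 and Bnip3 are highest in all 3 IUGR libraries at 10 weeks, and Egln3 and Adm are highest in all 3 IUGR libraries at 2 weeks.

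Among the factor subunits, Hif1a was the one called. At 2 weeks it had 90.4, 89.7 and 79.2 scaled CPM in IUGR islets, against 53.3, 62.2 and 68.2 scaled CPM in control islets. Every IUGR library was above every control library, and the difference was 0.50 ± 0.10 (edgeR adjusted p = 0.0429). At 10 weeks Hif1a had 69.3, 72.4 and 76.3 scaled CPM in IUGR islets, against 60.6, 67.4 and 63.7 scaled CPM in controls. The groups again did not overlap, but the difference of 0.19 ± 0.10 was not called (edgeR adjusted p = 0.185). The IUGR group at 2 weeks was the only one of the 4 with Hif1a at 79.2 scaled CPM or more in every library, as the highest library of the other groups had 76.3 scaled CPM.

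The call of Hif1a at 2 weeks was close to the threshold. It was lost without control replicate 1 or 2, or IUGR replicate 1, 2 or 3, where the log2 fold change stayed between 0.41 and 0.56 and the edgeR adjusted p ran from 0.0814 to 0.173. With the mean acinar level as a covariate it was 0.28 (edgeR adjusted p = 0.426). With no filter it was 0.51 (edgeR adjusted p = 0.0519) and with only the 2-week libraries 0.46 (edgeR adjusted p = 0.0639), neither of them called.

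Epas1, which encodes HIF-2alpha and is abundant in endothelial cells, had 34.2, 24.3 and 37.5 scaled CPM in IUGR islets at 10 weeks, against 36.9, 78.4 and 46.1 scaled CPM in controls. Control replicate 2, the 10-week control library with the lowest acinar share, was the highest of the 12. IUGR replicate 3 was above control replicate 1, and the difference of -0.75 ± 0.30 was not called (edgeR adjusted p = 0.0799). At 2 weeks Epas1 had 40.9, 57.9 and 35.4 scaled CPM in IUGR islets, against 26.3, 42.9 and 35.9 scaled CPM in controls, with overlap and a difference of 0.35 ± 0.29 (edgeR adjusted p = 0.448). Other fits did call Epas1 lower in IUGR islets at 10 weeks. Without control replicate 1 it was -0.92 (edgeR adjusted p = 0.0364) and by DESeq2 -0.74 (adjusted p = 0.0448). With the acinar covariate it was -2.50 (edgeR adjusted p = 0.00709), but that fit cannot fully separate IUGR from acinar level. Without control replicate 2 it was -0.35 (edgeR adjusted p = 0.349).

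Arnt, the shared partner, varied over a narrow range. It averaged 33.9 ± 1.76 scaled CPM in IUGR islets and 30.7 ± 0.246 scaled CPM in control islets at 10 weeks (SD, n = 3 each). At 2 weeks Arnt averaged 33.8 ± 0.460 scaled CPM in IUGR islets and 32.6 ± 0.691 scaled CPM in control islets (SD, n = 3 each). The differences were 0.14 ± 0.06 at 10 weeks and 0.05 ± 0.06 at 2 weeks, neither of which was called by edgeR (adjusted p = 0.118 and 0.619). At both ages every IUGR library was above every control library. By DESeq2 Arnt was called higher in IUGR islets at 10 weeks (0.15, adjusted p = 0.0462). All 12 libraries lay between 30.4 and 35.9 scaled CPM.

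The prolyl hydroxylases had no call between IUGR and control islets at either age. Egln1, which encodes PHD2, the main oxygen sensor, had 22.9, 22.4 and 24.0 scaled CPM in IUGR islets at 2 weeks, against 17.9, 18.5 and 19.7 scaled CPM in controls. The groups did not overlap, and the difference was 0.30 ± 0.10 (edgeR adjusted p = 0.0877). At 10 weeks Egln1 had 16.5, 16.6 and 20.4 scaled CPM in IUGR islets, against 19.6, 17.8 and 20.8 scaled CPM in controls. Here the groups overlapped, with a difference of -0.12 ± 0.10 (edgeR adjusted p = 0.375).

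Egln3, which encodes PHD3 and is itself a target of HIF, had 6.52, 6.10 and 6.03 scaled CPM in IUGR islets at 2 weeks, against 2.38, 4.67 and 3.79 scaled CPM in controls. All IUGR libraries were above all controls, with a difference of 0.78 ± 0.26 (edgeR adjusted p = 0.0924). At 10 weeks it had 1.48, 1.52 and 1.61 scaled CPM in IUGR islets, against 1.33, 2.30 and 2.70 scaled CPM in controls, a difference of -0.46 ± 0.28 (edgeR adjusted p = 0.239). The IUGR libraries were close together at both ages, while the control libraries spread over 2.38 to 4.67 scaled CPM at 2 weeks and 1.33 to 2.70 scaled CPM at 10 weeks. At 2 weeks DESeq2 called both hydroxylases higher, with adjusted p = 0.0241 for Egln1 and 0.0236 for Egln3.

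P4ha1 and P4ha2 encode the alpha subunits of collagen prolyl 4-hydroxylase, which modifies collagen in the endoplasmic reticulum so that its triple helix is stable. They were the only members called higher in IUGR islets at both ages. P4ha1 had 60.7, 62.9 and 66.7 scaled CPM in IUGR islets at 10 weeks, against 49.7, 44.5 and 41.8 scaled CPM in controls. At 2 weeks P4ha1 had 53.4, 43.6 and 42.4 scaled CPM in IUGR islets, against 28.4, 31.7 and 36.4 scaled CPM in controls. The groups did not overlap at either age. The difference was 0.48 ± 0.12 at 10 weeks (edgeR adjusted p = 0.0134) and 0.53 ± 0.12 at 2 weeks (edgeR adjusted p = 0.0458), and the effect at 10 weeks less that at 2 weeks was -0.05 ± 0.17 (edgeR adjusted p = 0.881).

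P4ha2 had 50.5, 46.0 and 55.4 scaled CPM in IUGR islets at 10 weeks, against 36.2, 39.8 and 33.7 scaled CPM in controls. At 2 weeks P4ha2 had 34.1, 31.4 and 35.8 scaled CPM in IUGR islets, against 24.5, 25.3 and 25.8 scaled CPM in controls. Here too every IUGR library was above every control library of its age. The difference was 0.47 ± 0.09 at 10 weeks (edgeR adjusted p = 0.00554) and 0.42 ± 0.09 at 2 weeks (edgeR adjusted p = 0.0442), and the effect at 10 weeks less that at 2 weeks was 0.05 ± 0.13 (edgeR adjusted p = 0.842).

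Several alternatives ended these calls without turning their direction. P4ha1 at 10 weeks was 0.43 without control replicate 3 (edgeR adjusted p = 0.0543) and 0.22 with the covariate (edgeR adjusted p = 0.639). P4ha2 at 10 weeks was called without any 1 library, and was 0.13 with the covariate (edgeR adjusted p = 0.680). At 2 weeks both calls were lost without control replicate 1 or 2 or IUGR replicate 1, 2 or 3. There P4ha1 stayed between 0.42 and 0.59 (edgeR adjusted p from 0.0896 to 0.173) and P4ha2 between 0.38 and 0.47 (edgeR adjusted p from 0.0862 to 0.173). Without both 10-week controls of high acinar share the 10-week values were 0.53 for P4ha1 (edgeR adjusted p = 0.0565) and 0.37 for P4ha2 (edgeR adjusted p = 0.0724). With the covariate at 2 weeks the values were 0.40 for P4ha1 (edgeR adjusted p = 0.418) and 0.25 for P4ha2 (edgeR adjusted p = 0.455). Both 2-week calls were also lost with no filter (edgeR adjusted p = 0.0535 for each). The same held with the acinar transcripts left out (edgeR adjusted p = 0.0507 for P4ha1 and 0.0550 for P4ha2). With only the 2-week libraries both were lost too (edgeR adjusted p = 0.0685 for P4ha1 and 0.0575 for P4ha2).

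Mesenchymal cells, which make most of the fibrous collagen of a tissue, were followed by 11 markers. The summed level was 335 to 427 scaled CPM in IUGR islets and 836 to 1749 scaled CPM in controls at 10 weeks, and 9 of the 11 fell. At 2 weeks it was 9501 to 11067 scaled CPM in IUGR islets and 4630 to 8072 scaled CPM in controls, and 2 of the 11 rose. Over all transcripts 15.5% were called lower at 10 weeks and 1.66% higher at 2 weeks. No marker of the list was at 0 in any group. The part of mesenchymal cells in the P4ha1 and P4ha2 results was not tested.

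Bnip3, which encodes a mitochondrial protein of mitophagy and cell death, had 84.6, 84.1 and 79.8 scaled CPM in IUGR islets at 10 weeks, against 66.8, 53.3 and 63.9 scaled CPM in controls. The groups did not overlap, and the difference was 0.43 ± 0.13 (edgeR adjusted p = 0.0264). At 2 weeks it had 46.7, 37.7 and 43.8 scaled CPM in IUGR islets, against 33.9, 32.3 and 42.5 scaled CPM in controls. The groups overlapped there, with a difference of 0.24 ± 0.13 (edgeR adjusted p = 0.233), and the effect at 10 weeks less that at 2 weeks was 0.20 ± 0.18 (edgeR adjusted p = 0.487). The call at 10 weeks was lost without control replicate 2 or 3 or IUGR replicate 1, 2 or 3, where it stayed between 0.36 and 0.47 (edgeR adjusted p from 0.0515 to 0.0722). With the acinar covariate it was 0.73 (edgeR adjusted p = 0.143).

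Adm, which encodes the vasodilator peptide adrenomedullin, had 1.39, 1.59 and 2.03 scaled CPM in IUGR islets at 10 weeks, against 2.06, 3.997 and 3.10 scaled CPM in controls. The groups did not overlap, and the difference of -0.87 ± 0.32 was not called (edgeR adjusted p = 0.0641). At 2 weeks Adm had 6.29, 6.16 and 5.53 scaled CPM in IUGR islets, against 2.20, 5.01 and 4.88 scaled CPM in controls, a difference of 0.56 ± 0.30 (edgeR adjusted p = 0.235). IUGR libraries were all below the controls at 10 weeks and all above them at 2 weeks. How many of all transcripts separated in this way was not counted. Adm at 10 weeks was called lower without control replicate 1 (-1.05, edgeR adjusted p = 0.0291) and by DESeq2 (-0.86, adjusted p = 0.0329). It was also called lower with the acinar covariate (-2.45, edgeR adjusted p = 0.0252), a fit that cannot fully separate IUGR from acinar level. Without control replicate 2 it was -0.59 (edgeR adjusted p = 0.221).

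Car9, which encodes the membrane carbonic anhydrase IX of acid export, was the least counted, with 4 to 116 counts in a library. It had 4, 10 and 32 counts in IUGR islets at 10 weeks, against 13, 53 and 24 counts in controls, that is 0.111, 0.249 and 0.791 scaled CPM against 0.412, 1.25 and 0.876 scaled CPM. At 2 weeks Car9 had 116, 63 and 55 counts in IUGR islets (1.64, 0.978 and 0.919 scaled CPM), against 21, 52 and 47 counts in controls (0.601, 1.02 and 0.922 scaled CPM). The groups overlapped at both ages. The differences were -1.13 ± 0.60 at 10 weeks (edgeR adjusted p = 0.179) and 0.47 ± 0.54 at 2 weeks (edgeR adjusted p = 0.591). Without IUGR replicate 3 the 10-week difference was -2.21 (edgeR adjusted p = 0.0295).

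**Figure D2:**
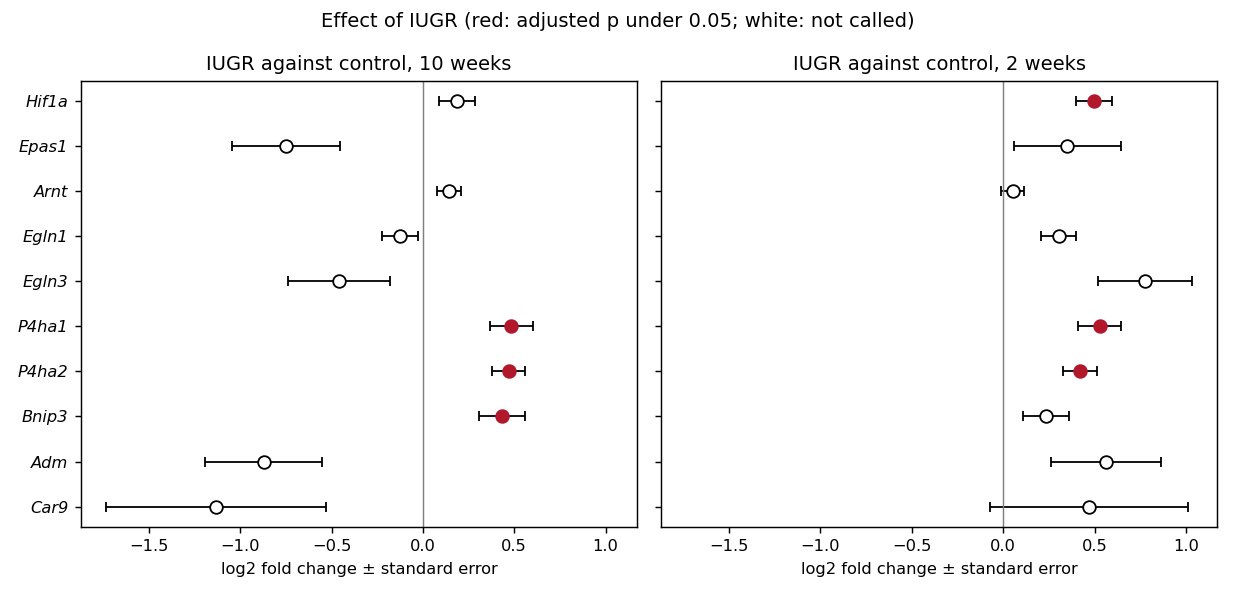
Log2 fold change of IUGR over control islets with its standard error (horizontal axis) for each gene at 10 weeks (left) and 2 weeks (right). Red points were called (edgeR adjusted p under 0.05) and white points were not. All 10 points lie above 0 at 2 weeks, while Epas1, Egln1, Egln3, Adm and Car9 lie below 0 at 10 weeks. The median of all transcripts at 2 weeks was also above 0 (0.05), and the 10 points share the same libraries. At 2 weeks Arnt was at -0.0046 with the acinar transcripts left out. With the acinar covariate at 2 weeks Epas1 was at -0.58, Adm at -0.22 and Car9 at -0.77.

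Whether the IUGR effect itself differed between the ages was tested as an interaction. By edgeR 0 of the 10 genes passed, beside 3.97% of all transcripts called higher and 10.4% called lower. Of the 10, 5 had an unadjusted p under 0.05, beside 6441 of all 20733 transcripts, and all 5 had the lower effect at 10 weeks. DESeq2 called 4 of these 5, beside 1330 of 28746 transcripts called higher and 2955 lower. The changes were -1.24 ± 0.38 for Egln3 (edgeR adjusted p = 0.0518), -1.44 ± 0.44 for Adm (edgeR adjusted p = 0.0515), -0.43 ± 0.14 for Egln1 (edgeR adjusted p = 0.0635) and -1.10 ± 0.42 for Epas1 (edgeR adjusted p = 0.101). For Hif1a it was -0.31 ± 0.14 (edgeR adjusted p = 0.161) and for Car9 -1.60 ± 0.81 (edgeR adjusted p = 0.203). The first 3 lie just over the threshold, and leaving out a library moved some across it. Egln3 and Adm were called without control replicate 2 at 2 weeks (Egln3 -1.46, adjusted p = 0.0326; Adm -1.62, adjusted p = 0.0487) and without control replicate 1 at 10 weeks (-1.39, adjusted p = 0.0125, and -1.56, adjusted p = 0.0236). Without IUGR replicate 3 at 10 weeks edgeR called Egln1 (-0.53, adjusted p = 0.0259) and Car9 (-2.68, adjusted p = 0.0419). The split of all calls was 824 higher and 2149 lower as reported, and 1464 and 1991 with the acinar transcripts left out.

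HIF reaches its targets through a short core motif, so the promoters of 4 genes are shown. P4ha1, P4ha2 and Bnip3 are the members called higher in IUGR islets at 10 weeks, and Egln3 is the member that fell most with age. Sequences are from RefSeq (build GRCr8), 5′ to 3′ on the strand of the gene, from 250 bases before the start of the gene to 50 bases after it. Capitals mark ACGTG or GCGTG, the 2 forms of the HIF core, on either strand (CACGT and CACGC are the same motifs read on the other strand, and CACGTG holds ACGTG on both).
P4ha1: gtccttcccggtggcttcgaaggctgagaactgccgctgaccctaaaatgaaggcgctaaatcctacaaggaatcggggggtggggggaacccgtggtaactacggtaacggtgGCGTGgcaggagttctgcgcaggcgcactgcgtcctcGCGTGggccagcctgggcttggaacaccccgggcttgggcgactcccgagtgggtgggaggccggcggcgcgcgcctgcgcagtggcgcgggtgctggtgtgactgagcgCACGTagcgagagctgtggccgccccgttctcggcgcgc
P4ha2: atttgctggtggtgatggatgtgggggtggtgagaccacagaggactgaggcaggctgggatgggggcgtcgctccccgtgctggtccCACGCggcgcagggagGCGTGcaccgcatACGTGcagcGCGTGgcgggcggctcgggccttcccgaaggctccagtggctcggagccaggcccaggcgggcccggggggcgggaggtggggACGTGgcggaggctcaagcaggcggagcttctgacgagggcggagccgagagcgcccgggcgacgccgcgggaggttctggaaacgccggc
Bnip3: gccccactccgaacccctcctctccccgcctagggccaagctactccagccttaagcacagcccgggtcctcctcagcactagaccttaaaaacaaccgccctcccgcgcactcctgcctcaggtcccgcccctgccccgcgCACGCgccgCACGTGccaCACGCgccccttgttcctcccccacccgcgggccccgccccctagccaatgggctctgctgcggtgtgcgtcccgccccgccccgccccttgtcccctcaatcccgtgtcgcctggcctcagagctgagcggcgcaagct
Egln3: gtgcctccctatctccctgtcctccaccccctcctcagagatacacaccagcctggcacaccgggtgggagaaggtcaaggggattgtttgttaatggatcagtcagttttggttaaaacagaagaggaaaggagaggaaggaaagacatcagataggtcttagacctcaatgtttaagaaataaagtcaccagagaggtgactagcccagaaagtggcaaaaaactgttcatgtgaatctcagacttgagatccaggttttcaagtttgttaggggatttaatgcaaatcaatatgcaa

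The windows are chr20:27844796-27845095 (plus strand) for P4ha1, chr10:38743644-38743943 (plus strand) for P4ha2, chr1:203154913-203155212 (minus strand) for Bnip3 and chr6:77410966-77411265 (minus strand) for Egln3. P4ha1 held 3 matches, P4ha2 held 5 and Bnip3 held 4, and the Egln3 window held none. In Bnip3 the matches lie between positions -108 and -86 from the start, and in P4ha2 between -162 and -37. Of the other members, Hif1a held 3 matches, Egln1 held 2, Arnt and Car9 held 1 each, and Epas1 and Adm held none. In all, 7 of the 10 promoters held a match, beside 58.8% of the 11112 promoters of genes tested here and 41.6% of all 33469 promoters in the table. ACGTG was in 6 of the 10 (24.1% of promoters of tested genes) and GCGTG in 5 of the 10 (47.2%). A match is a description of the letters in this window. No match says only that these letters are not in it.

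In IUGR islets at 10 weeks against 2 weeks, P4ha1, P4ha2 and Bnip3 rose and Egln1, Egln3, Adm and Car9 fell, so that 3 of 10 were called higher and 4 of 10 lower. Over all transcripts 27.3% were called higher and 29.2% lower in that comparison, so neither share of the members stands far from the background. In control islets the same 3 rose and Egln3 fell, beside 17.2% of all transcripts called higher and 15.1% called lower. The age comparisons in IUGR and in control islets share no libraries, and the difference between them is the interaction given above.

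Bnip3 was the member that rose most with age. It averaged 82.8 ± 2.67 scaled CPM at 10 weeks and 42.7 ± 4.62 scaled CPM at 2 weeks in IUGR islets (SD, n = 3 each), a difference of 0.96 ± 0.13 (edgeR adjusted p = 9.57e-05). In control islets it averaged 61.3 ± 7.12 scaled CPM at 10 weeks and 36.3 ± 5.52 scaled CPM at 2 weeks (SD, n = 3 each), a difference of 0.76 ± 0.13 (edgeR adjusted p = 0.00151). On the log2 scale P4ha1 rose by 0.45 ± 0.12 in IUGR islets (edgeR adjusted p = 0.00709) and by 0.50 ± 0.12 in controls (edgeR adjusted p = 0.00930). P4ha2 rose by 0.59 ± 0.09 in IUGR islets (edgeR adjusted p = 0.000289) and by 0.54 ± 0.09 in controls (edgeR adjusted p = 0.00172). For Bnip3, P4ha1 and P4ha2 every 10-week library was above every 2-week library, in IUGR and in control islets. How many of all transcripts did the same was not counted. P4ha1 lost its call in IUGR islets with the acinar covariate (0.35, adjusted p = 0.0681) and in controls without both 10-week controls of high acinar share (0.47, adjusted p = 0.0806).

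Egln3 fell most. In IUGR islets it averaged 1.53 ± 0.0667 scaled CPM at 10 weeks and 6.22 ± 0.265 scaled CPM at 2 weeks (SD, n = 3 each), a difference of -2.02 ± 0.27 (edgeR adjusted p = 0.000115). In control islets it averaged 2.11 ± 0.705 scaled CPM at 10 weeks and 3.61 ± 1.16 scaled CPM at 2 weeks (SD, n = 3 each), a difference of -0.78 ± 0.27 (edgeR adjusted p = 0.0459), and the control libraries overlapped. The control call was lost without control replicate 2 (-0.55) or 3 (-0.75) at 2 weeks, and without control replicate 1 (-0.56) or 2 (-0.86) at 10 weeks. It was also lost with the acinar covariate (-0.70). In these fits the edgeR adjusted p ran from 0.0511 to 0.174. With no filter it was -0.79 (edgeR adjusted p = 0.05075) and with only the control libraries -0.77 (edgeR adjusted p = 0.157), neither of them called. Without both 10-week controls of high acinar share it was -0.66. The fall in IUGR islets held without any 1 library.

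Adm averaged 1.67 ± 0.324 scaled CPM at 10 weeks and 5.99 ± 0.409 scaled CPM at 2 weeks in IUGR islets (SD, n = 3 each), and fell, with a difference of -1.84 ± 0.32 (edgeR adjusted p = 0.000564). In controls its difference was -0.40 ± 0.31 (edgeR adjusted p = 0.333). Egln1 fell in IUGR islets, with -0.37 ± 0.10 (edgeR adjusted p = 0.00723), and had a difference of 0.05 ± 0.10 in controls (edgeR adjusted p = 0.704). Car9 fell in IUGR islets, with -1.60 ± 0.58 (edgeR adjusted p = 0.0356), and had a difference of 0.00 ± 0.56 in controls (edgeR adjusted p = 0.999). The Car9 call was lost without IUGR replicate 1 or 2 of either age, with values from -1.72 to -1.18 and adjusted p from 0.0533 to 0.124.

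The factor subunits had no call with age as reported, but other fits called Hif1a and Epas1. Hif1a had a difference of -0.25 ± 0.10 in IUGR islets (edgeR adjusted p = 0.0512) and of 0.06 ± 0.10 in controls (edgeR adjusted p = 0.664). It was called lower in IUGR islets by DESeq2 (-0.24, adjusted p = 0.0352) and without IUGR replicate 3 at 2 weeks (-0.31, edgeR adjusted p = 0.039), with only the IUGR libraries (-0.26, edgeR adjusted p = 0.0196) and with the acinar covariate (-0.41, edgeR adjusted p = 0.00791). Epas1 had -0.48 ± 0.30 in IUGR islets and 0.62 ± 0.30 in controls (edgeR adjusted p = 0.182 and 0.129). With the acinar covariate Epas1 was called lower with age in IUGR islets (-1.15, edgeR adjusted p = 0.000876) and higher in controls (0.77, edgeR adjusted p = 0.00508). Without both 10-week controls of high acinar share it was 1.16 in controls (edgeR adjusted p = 0.0350). Arnt had 0.00 ± 0.06 in IUGR islets and -0.09 ± 0.06 in controls (edgeR adjusted p = 0.991 and 0.297).

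**Figure D3:**
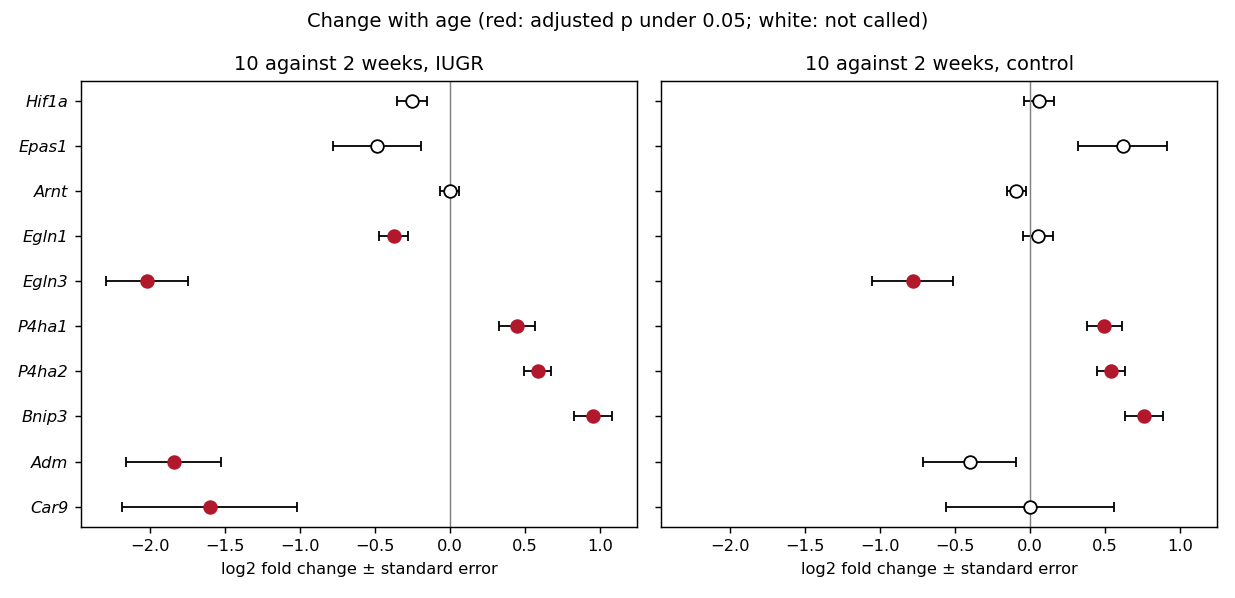
Log2 fold change of 10 weeks over 2 weeks with its standard error (horizontal axis) for each gene in IUGR islets (left) and control islets (right). Red points were called (edgeR adjusted p under 0.05) and white points were not. P4ha1, P4ha2 and Bnip3 were called higher in both panels, and Egln3 was called lower in both.

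Other genes of the pathway were read from 3 lists, on the factor and oxygen-sensing side, for glycolytic targets and for other targets. These lists too were chosen with earlier results of these data known. The background is the share of all transcripts called in the same comparison. On the factor and sensing side, 0 of 14 tested genes were called higher and 2 lower in IUGR islets at 10 weeks, beside a background of 12.4% higher and 15.5% lower. These were Cited2, which competes with HIF for its coactivators (-1.05 ± 0.17, edgeR adjusted p = 0.00253), and Siah2, a ubiquitin ligase that acts on the prolyl hydroxylases (-0.49 ± 0.16, edgeR adjusted p = 0.0451). At an unadjusted p under 0.05 there were 4 higher and 4 lower, beside 8571 of all 20733 transcripts in either direction. DESeq2 called 1 higher and 2 lower, beside 3188 of 28746 transcripts called higher and 3707 lower. At 2 weeks edgeR called 0 of the 14, with 5 at an unadjusted p under 0.05, beside 5939 of all 20733 transcripts. There DESeq2 called 1, beside 1775 of 28746 transcripts called higher and 1391 lower. The list medians were -0.06 at 10 weeks and 0.05 at 2 weeks, close to the medians of all transcripts (-0.01 and 0.05).

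Of 21 glycolytic targets tested, 3 rose and 6 fell in IUGR islets at 10 weeks, beside a background of 12.4% higher and 15.5% lower. Without both 10-week controls of high acinar share 0 were called higher and 7 lower, and with the acinar covariate 1 higher and 4 lower. The 4 with the smallest p all fell. Hk1, hexokinase 1, had -1.44 ± 0.18 (edgeR adjusted p = 0.000990) and Ldha, lactate dehydrogenase A, -1.48 ± 0.22 (edgeR adjusted p = 0.00190). Pfkfb3, which makes an activator of phosphofructokinase, had -2.02 ± 0.45 (edgeR adjusted p = 0.00965) and Hk2, hexokinase 2, -1.31 ± 0.33 (edgeR adjusted p = 0.0161). Hk1 and Ldha are among the genes that mature beta cells keep low. The 3 that rose were enolase Eno2 (0.54 ± 0.16), pyruvate kinase Pkm (0.59 ± 0.18) and triosephosphate isomerase Tpi1 (0.27 ± 0.08), with edgeR adjusted p of 0.0284, 0.0287 and 0.0318.

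At 2 weeks, where 1.66% of all transcripts were called higher, 4 of the 21 glycolytic targets rose: the aldolase Aldoa (0.51 ± 0.10), the mutase Pgam1 (0.59 ± 0.12), Tpi1 (0.35 ± 0.08) and the isomerase Gpi (0.31 ± 0.08), with edgeR adjusted p between 0.0429 and 0.0495. DESeq2 called 10 of the 21 at 2 weeks, all higher, beside 1775 of 28746 transcripts called higher and 1391 lower by DESeq2. The list median was -0.06 at 10 weeks and 0.39 at 2 weeks, against -0.01 and 0.05 over all transcripts. Of the 21, 8 had a lower IUGR effect at 10 weeks than at 2 weeks in the interaction test, led by Ldha (-2.08 ± 0.31, edgeR adjusted p = 0.00340), Hk1 (-1.38 ± 0.24, edgeR adjusted p = 0.00614), the lactate carrier Slc16a3 (-1.60 ± 0.39, edgeR adjusted p = 0.0200) and the glucose carrier Slc2a3 (-2.09 ± 0.50, edgeR adjusted p = 0.0203). The background of lower calls in that test was 10.4%. With the acinar covariate the calls at 2 weeks numbered 0, and for the interaction 1 higher and 10 lower.

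Of 29 other targets tested, 2 rose and 6 fell in IUGR islets at 10 weeks, beside a background of 12.4% higher and 15.5% lower. Ero1l, which drives disulfide formation in the endoplasmic reticulum, rose by 0.62 ± 0.10 (edgeR adjusted p = 0.00277), and Vegfa, the main growth factor of vessels, rose by 0.55 ± 0.12 (edgeR adjusted p = 0.00958). The stress-induced mTOR inhibitor Ddit4 fell, with -1.64 ± 0.17 (edgeR adjusted p = 0.000579), as did the carbonic anhydrase Car12, with -4.03 ± 0.69 (edgeR adjusted p = 0.00326), and Plod2, a lysyl hydroxylase of collagen, with -0.84 ± 0.18 (edgeR adjusted p = 0.00749). At 2 weeks the lysyl oxidase-like gene Loxl2 rose by 0.80 ± 0.14 (edgeR adjusted p = 0.0288) and the adenylate kinase Ak4 by 1.03 ± 0.25 (edgeR adjusted p = 0.0488), while Car12 fell, with -2.88 ± 0.52 (edgeR adjusted p = 0.0344). With the acinar covariate 0 of the 29 were called at 2 weeks, and at 10 weeks 0 higher and 6 lower. The list median was -0.23 at 10 weeks and 0.12 at 2 weeks, against -0.01 and 0.05 over all transcripts.

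The interaction called 3 of these 29 higher and 7 lower, beside 3.97% and 10.4% of all transcripts. The IUGR effect was higher at 10 weeks than at 2 weeks for Vegfa (0.75 ± 0.18, edgeR adjusted p = 0.0182), Ankrd37 (0.71 ± 0.19, edgeR adjusted p = 0.0335) and Ero1l (0.50 ± 0.15, edgeR adjusted p = 0.0430). It was lower for Ak4 (-2.10 ± 0.37, edgeR adjusted p = 0.00624) and Plod2 (-1.35 ± 0.25, edgeR adjusted p = 0.00687) among others. The list median for the interaction was -0.62, against 0.00 over all transcripts. With age in IUGR islets 5 of the 29 rose and 14 fell, and in control islets 7 rose and 8 fell. Of the 21 glycolytic targets, 8 rose and 8 fell with age in IUGR islets and in controls 9 rose and 12 were not called. The background with age was 27.3% higher and 29.2% lower in IUGR islets, and 17.2% higher and 15.1% lower in controls.

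**Figure D4:**
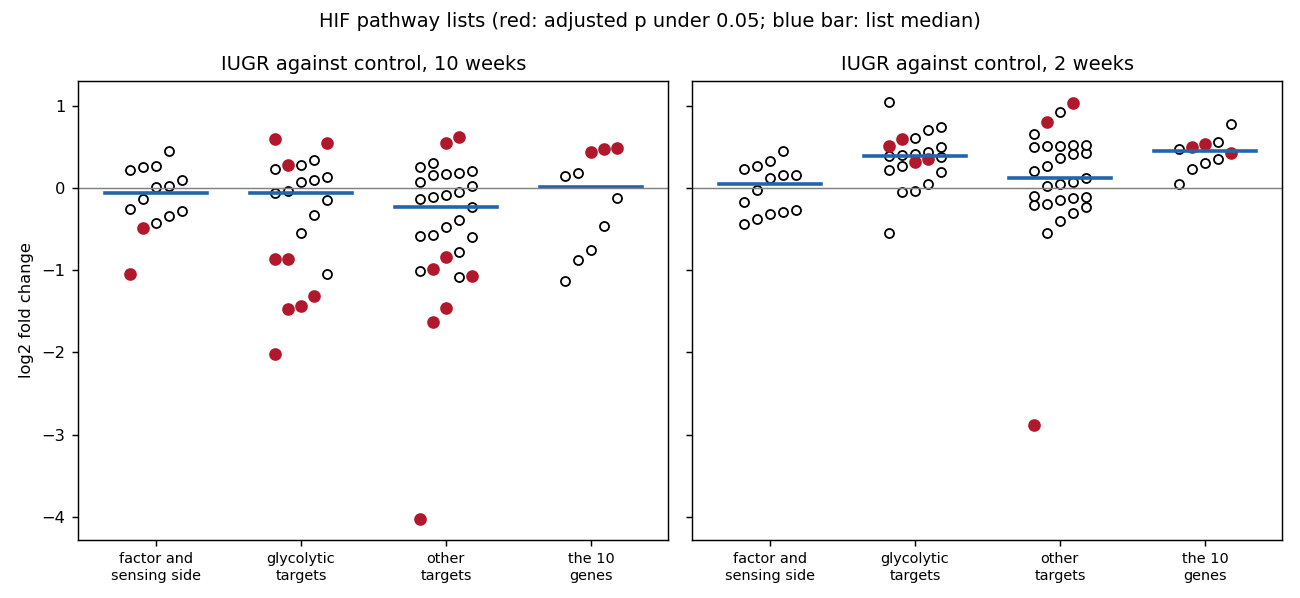
Log2 fold change of IUGR over control islets (vertical axis) at 10 weeks (left) and 2 weeks (right) for the genes of 3 HIF pathway lists and the 10 genes. Each circle is a gene, red where called by edgeR, and blue bars are list medians. At 10 weeks the red circles of the glycolytic and other targets lie on both sides of 0.

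The groups also differed in markers of other islet cells. Summed over 14 endothelial markers, the level was 483 to 664 scaled CPM in IUGR islets and 715 to 1213 scaled CPM in controls at 10 weeks, where 11 of 14 fell. At 2 weeks it was 1060 to 1263 scaled CPM in IUGR islets and 605 to 979 scaled CPM in controls. There edgeR called 0 of 14, with 4 at an unadjusted p under 0.05, beside 5939 of all 20733 transcripts. DESeq2 called 1 of the 14, beside 1775 of 28746 transcripts called higher and 1391 lower. Over all transcripts 15.5% were called lower at 10 weeks. No endothelial marker was at 0 in any group. The mean endothelial sum was lower in IUGR than in control islets at 10 weeks and higher at 2 weeks. The mean levels of Epas1, Egln1, Egln3, Adm and Car9 had the same order. So had the mean sums of the mesenchymal markers and of the macrophage markers and immediate-early genes given below. With age 12 of the 14 endothelial and all 11 mesenchymal markers fell in IUGR islets, as did Egln1, Egln3, Adm and Car9. In controls 2 endothelial markers rose, 1 fell and 9 mesenchymal markers fell. Per 1000 scaled CPM of summed endothelial markers, a ratio chosen after the values were seen, Epas1 was 62.7, 50.3 and 56.4 in IUGR islets and 51.5, 64.7 and 42.6 in controls at 10 weeks. It was 38.6, 45.9 and 32.6 in IUGR islets and 43.5, 43.8 and 39.7 in controls at 2 weeks. The part of endothelial cells in the Epas1, Egln1, Egln3, Adm and Car9 results was not tested.

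**Figure D5:**
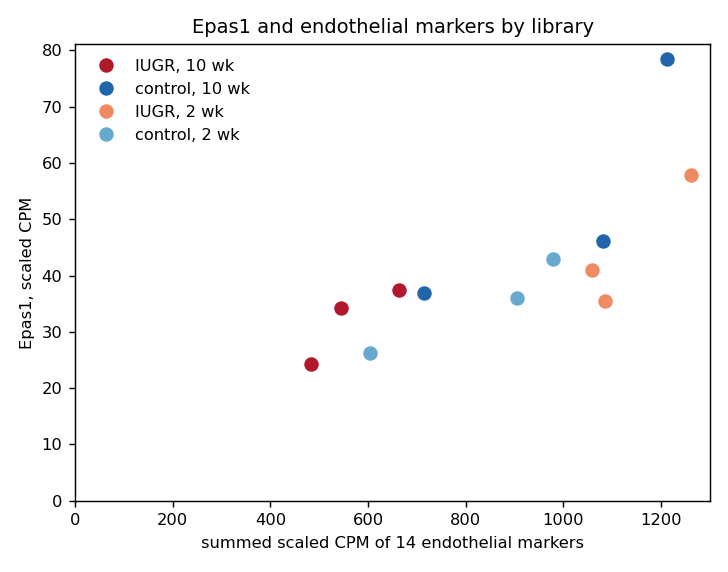
Scaled CPM of Epas1 (vertical axis) against the summed scaled CPM of 14 endothelial markers (horizontal axis), 1 point per library, coloured by group. The 10-week IUGR libraries (24.3 to 37.5 scaled CPM of Epas1) have the lowest endothelial sums of their age, and 10-week control replicate 2 is highest in Epas1.

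Beta cell markers (10 genes summed) ran from 176480 to 190990 scaled CPM in IUGR islets and 94139 to 141680 scaled CPM in controls at 10 weeks, and 5 of 10 rose. At 2 weeks they ran from 33916 to 38343 scaled CPM in IUGR islets and 21949 to 38526 scaled CPM in controls. All 10 rose with age in both IUGR and control islets, as did P4ha1, P4ha2 and Bnip3. Immediate-early genes, which respond within minutes to stress and to handling of tissue, summed to 979 to 1109 scaled CPM in IUGR islets and 1498 to 3045 scaled CPM in controls at 10 weeks, where 14 of 18 fell. At 2 weeks they summed to 2299 to 3179 scaled CPM in IUGR islets and 1037 to 2137 scaled CPM in controls. There edgeR called 0 of 18, with 12 at an unadjusted p under 0.05, all higher, beside 5939 of all 20733 transcripts in either direction. DESeq2 called 7 of the 18, beside 1775 of 28746 transcripts called higher and 1391 lower. Macrophage markers summed to 83.7 to 189 and 83.0 to 237 scaled CPM in IUGR and control islets at 10 weeks, and to 101 to 144 and 49.996 to 108 scaled CPM in IUGR and control islets at 2 weeks. Ductal markers summed to 131 to 212 scaled CPM in IUGR islets and 230 to 590 scaled CPM in controls at 10 weeks, and to 169 to 248 scaled CPM in IUGR islets and 445 to 910 scaled CPM in controls at 2 weeks. Of 12 macrophage markers edgeR called 4 lower at 10 weeks and 0 at 2 weeks. Of 12 ductal markers edgeR called 2 lower at 10 weeks and 1 lower at 2 weeks. Over all transcripts 12.4% were called higher and 15.5% lower at 10 weeks, and 1.66% higher and 2.21% lower at 2 weeks. The part of these marker lists and immediate-early genes in the HIF results was not tested.

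Across the 12 libraries the genes whose log2 CPM followed a member most closely, among 11709 genes read from 1 transcript each, were read as a description, since all share the same libraries. For Hif1a they were Prkar2b, Tagln2 and Adam9, with Pearson r of 0.957, 0.957 and 0.954. Prkar2b encodes a regulatory subunit of protein kinase A and Adam9 a membrane metalloprotease. For Epas1 they were Sec14l1, Bmpr2 and Dll4, with r of 0.978, 0.965 and 0.912, of which Bmpr2 is a receptor of bone morphogenetic proteins and Dll4 a Notch ligand of endothelium. For P4ha1 they were Sult4a1, Calm2 and Armcx2, with r of 0.977, 0.975 and 0.974, of which Calm2 encodes calmodulin.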

How the data were processed

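RNA of 12 islet libraries was sequenced from ribosomal-depleted, stranded preparations, per the labels' protocols. Per the submitters' processing notes, TopHat2 2.0.9 and bedtools were used with rn5 and mm9, whose roles are not stated. How reads were counted, whether by strand and against which annotation, is not given in the sources used here. As deposited, the values were raw counts per Ensembl rat transcript, not normalized (30309 transcripts, 25888 symbols).

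The 4 groups were fitted together in edgeR 4.0.16 (R 4.3.3), after its filterByExpr step and with TMM scaling, by robust quasi-likelihood F tests, with Benjamini-Hochberg adjustment over 20733 transcripts. A standard error is the size of the log2 fold change divided by the root of its F. The fit compared IUGR with control islets at each age, these effects with each other, and 10 against 2 weeks in each group. Likeness used log2 CPM with a prior count of 2 and a minimum mean of 1. The steps were tested on simulated counts.

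All 10 members are named; of the pathway lists, called genes may be named, beginning with the 4 of smallest p. The members, lists and tests were chosen with earlier results of these data known. As alternatives, DESeq2 1.42.0 replaced edgeR, RLE factors replaced TMM and the filter was dropped. A replicate block or the mean acinar level (a covariate) was added in other runs. Further fits had the acinar transcripts left out, 1 transcript per symbol, only a comparison's libraries, or each library left out. The last left out the 10-week control replicates 1 and 3 together, where the lone control library was assumed to vary like the other groups. The application of these alternatives to the pathway lists was chosen after seeing the data. No 2 libraries had identical counts, and the chi-square per degree of freedom between replicates ran from 30.0 to 1067. Promoters come from RefSeq (GRCr8), matched by symbol for 10 of 10 genes; that build differs from the rn5 of the notes, so no position of the counts is given.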

Additional observations from a re-analysis of the deposited data

How the results depend on the processing

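None of the fold changes called as reported changed sign in any alternative run; of 780 fold changes computed under alternatives, 28 changed sign. The members called at 10 weeks numbered 3, all higher, and 6 by DESeq2; with the acinar covariate 0 were higher and 2 lower (Epas1 and Adm), so none of the 3 kept its call; without 1 library in turn they numbered 1 to 5. At 2 weeks they numbered 3, 5 by DESeq2 and 1 with the acinar transcripts left out. They numbered 0 with no filter, with the acinar covariate or with only the 6 libraries of the comparison. Without 1 library in turn they numbered 0 to 3. For the difference between ages they numbered 0, and 4 by DESeq2, 2 with RLE factors, 3 with the replicate block, 5 with the covariate and 3 without both high-acinar 10-week controls; without 1 library in turn they numbered 0 to 2. Of 28746 transcripts, DESeq2 called 3188 higher and 3707 lower at 10 weeks, and 1775 higher and 1391 lower at 2 weeks. For the difference between ages DESeq2 called 1330 higher and 2955 lower. With age the members called numbered 7 in IUGR (6 to 8 without 1 library) and 4 in control islets (3 to 4). The cause of these shifts was not tested.

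Signs that changed belonged to fold changes that were not called. With the covariate these were Hif1a at 10 weeks (-0.24), Epas1 (-0.58), Adm (-0.22) and Car9 (-0.77) at 2 weeks, P4ha2 in the difference between ages (-0.12) and Arnt with age in IUGR islets (-0.030). Without both high-acinar controls they were Egln1 at 10 weeks (0.023), P4ha2 in the difference (-0.079) and Egln1 with age in controls (-0.072). With acinar transcripts left out they were Arnt at 2 weeks (-0.0046) and P4ha1 in the difference (0.038). Arnt with age in IUGR islets was -0.0019 with no filter and -0.0093 with only its libraries, and Car9 with age in controls was -0.0031 with no filter and -0.0069 with the replicate block. Without 1 library in turn, the difference between ages ran from -0.14 to 0.12 for P4ha1 and from -0.02 to 0.18 for P4ha2, Arnt with age in IUGR islets from -0.041 to 0.026, and with age in controls Hif1a from -0.030 to 0.14 and Car9 from -0.42 to 0.31.

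The labels tie the replicate numbers to no animal or batch, and the rule for pairing, every same-number pair above 0.1, was not met: of 18 such pairs across groups 8 correlated above 0.1 (-0.14 to 0.48; 5 of the 6 pairs numbered 2), against 4 of 36 with other numbers. With the replicate block 4 members were called at 10 weeks, the added one being Adm (-0.85, edgeR adjusted p = 0.0450), 3 at 2 weeks, 3 against 0 in the difference (Egln1, Egln3 and Adm), 7 with age in IUGR and 4 in control islets. Car9 had the lowest counts of the members, 4 to 116 per library.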
